A study of Mus musculus with 24 samples.

Results

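Guts that lacked both Ret and Sema3d were compared with guts that lacked Ret alone, which measures the loss of Sema3d where Ret is already missing. The comparison covered 12 of the 24 guts sequenced, 6 Ret-Sema3d double null and 6 Ret null. Both genotypes are homozygous for a Ret null allele, and the double null guts are in addition homozygous for a Sema3d null allele. Wildtype and Sema3d null guts, 6 of each, entered the authors' model and serve here as reference levels. All were whole guts, taken from mouse embryos at embryonic day 12.5 of a mixed background of the C57BL/6, 129/Sv and C3H strains, with 3 female and 3 male guts per genotype. The labels give no litter, and the sources used here do not say how the null alleles were made. For each gene the difference, double null minus Ret null, is the sum of the authors' Sema3d coefficient and their product coefficient for Ret and Sema3d in the model of all 24 guts. Of the 26260 genes in that table, 12416 were kept as members: their fit converged, no coefficient exceeded 15 on the log2 scale, and their fitted level reached 50 normalised counts in at least 1 genotype. Just inside that level were Bbc3 and Saa2, at 50.02 and 50.07 in their highest genotype, and just outside were Rhbdl3 and Mir124a-1hg.

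The enteric nervous system is formed by neural crest cells that enter the foregut and migrate along the gut wall while they divide and become neurons and glia. Ret is the receptor tyrosine kinase through which these cells sense GDNF-family ligands, and without it most of the gut stays free of neurons. Sema3d is a secreted class 3 semaphorin. Such semaphorins bind neuropilins and plexins and steer growing axons, crest cells and blood vessels.

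The deposited tables hold model fits and no value per gut, so a gene is described by its fitted level in each genotype (normalised counts, averaged over the sexes) and by a log2 difference ± an error derived from the authors' deviances. Total counts per library are unknown, since the tables do not hold them. No exact test over guts could be run for the same reason, and the p-values below are normal (Wald) values from the authors' DESeq fit across all genes. The median error of a member was 0.0961 on the log2 scale, with the 5th and 95th percentiles at 0.0745 and 0.221. A member with the median error passed an unadjusted p of 0.05 from a difference of 0.188, and was called, at a Benjamini-Hochberg adjusted Wald p below 0.05, from about 0.431. The labels name separate guts, and the p-values rest on a dispersion derived from the fit of all 24. For 71.9% of members that dispersion lay within 10% of a smooth curve of the level. Their error was thus mostly shared by genes of similar level. The p-values therefore do not measure a gene's own spread between the 12 guts compared, for which a value per gut would be needed. Because whole guts were sequenced, fewer cells of a type and less RNA per cell cannot be told apart anywhere below.

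The marker genes of the labelled tissue were present in both genotypes. Epithelial Epcam stood at 1230 in Ret null guts and 1189 in double null guts, smooth muscle Acta2 at 4860 and 5255, and mesothelial Upk3b at 980 and 980. The defining markers of enteric neurons were low in both, as described with the neural genes, and those of skeletal muscle and dorsal root ganglia (Myod1, Myog, Avil) were at a level of 7.22 or less in both.

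Few genes separated the double null from the Ret null guts. Of 22438 genes tested, 8 were called (0.0357%), and 4 of these were members (0.0322% of 12416). Sema3d itself and the non-coding transcript AI506816 fell, and the plexin receptor gene Plxna4 and the thrombomodulin gene Thbd rose. With the whole error of the product term, an upper bound, Sema3d alone was called. Without adjustment for the number of genes, 508 members (4.09%) had p below 0.05, of which 361 were higher in double null guts (2.91%) and 147 lower (1.18%). The median difference over all members was -0.0016, the interquartile range ran from -0.060 to 0.065, and 6131 members (49.4%) lay above 0.

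Sema3d (ENSMUSG00000040254.11; GRCm38 chromosome 5, 12383385 to 12588948, plus strand) had a fitted level of 815 in wildtype, 677 in Ret null, 389 in Sema3d null and 396 in double null guts. Both genotypes with the null allele were thus low and close to each other, while Ret null guts lay between them and wildtype. The difference, double null minus Ret null, was -0.77 ± 0.093 (adjusted Wald p of 2.06e-12), which left 58.4% of the Ret null level. A gene-level value does not show which exons are still transcribed. Ret (ENSMUSG00000030110.13; chromosome 6, 118151745 to 118197718, minus strand) was at 1523 in wildtype and 1328 in Sema3d null guts, but at 4.72 in Ret null guts and 1.15 in double null guts. The Ret null and double null libraries as groups therefore carried the labelled loss. The Ret difference between them, -2.03 ± 0.61, was not called (adjusted Wald p of 0.409), rests on levels near 0, and is the 1 member whose solved dispersion was negative and set to 0.

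AI506816 is annotated as a processed transcript, 11.3 Mb from Sema3d on the same chromosome (ENSMUSG00000105987.4; chromosome 5, 23698296 to 23712667). Its level was 2274 in wildtype and 2117 in Ret null guts, and 1168 in Sema3d null and 1054 in double null guts. Levels were thus low in both genotypes with the Sema3d null allele, with or without Ret. Double null guts were lower than Ret null guts by -1.01 ± 0.22 (adjusted Wald p of 0.0194), beside -0.96 ± 0.22 for Sema3d null minus wildtype, and the product term was -0.044 with an adjusted p of 1.000 in the authors' deposited table.

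Because these were the members that fell, the 250 bases before the RefSeq start of each are shown (GRCm38.p6), 5′ to 3′ on the gene's own strand. Sema3d occupies chr5:12382916-12383165 on the plus strand and AI506816 chr5:23712668-23712917 on the minus strand. Capitals mark matches, on either strand, to the CCAAT box, searched by those letters. They also mark the GC box, searched as GGGCGG. The TATA box was searched as TATAAA and had 0 matches in both.
Sema3d: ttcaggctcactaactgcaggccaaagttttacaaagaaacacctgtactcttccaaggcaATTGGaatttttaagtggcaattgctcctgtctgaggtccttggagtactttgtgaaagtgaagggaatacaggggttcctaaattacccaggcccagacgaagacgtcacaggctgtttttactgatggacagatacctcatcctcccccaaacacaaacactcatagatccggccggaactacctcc
AI506816: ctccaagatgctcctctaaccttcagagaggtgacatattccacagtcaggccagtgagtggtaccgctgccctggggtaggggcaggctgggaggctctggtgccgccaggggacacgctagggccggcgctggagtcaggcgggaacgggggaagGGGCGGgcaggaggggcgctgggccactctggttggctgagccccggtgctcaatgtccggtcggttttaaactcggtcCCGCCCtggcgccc
The Sema3d stretch holds 1 CCAAT match and 0 GC box matches, with 46.8% G and C and 4 CpG pairs. The AI506816 stretch holds 2 GC box matches and 0 CCAAT matches, with 67.2% G and C and 15 CpG pairs. Over 32851 RefSeq promoter stretches of this length the median was 52.4% and 6 CpG pairs, and the CCAAT box occurred in 33.8%, the GC box in 32.7% and the TATA box in 12.4%. The motifs do not overlap one another in either stretch, and a match is a run of letters, not a measured binding site.

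Plxna4 encodes plexin A4, a receptor subunit for class 3 semaphorins with roles in axon guidance (ENSMUSG00000029765.12, chromosome 6). Its level was 670 in wildtype, 246 in Ret null, 625 in Sema3d null and 363 in double null guts. Both genotypes without Ret were low, and among them the double null guts were higher. The difference was 0.56 ± 0.11 (adjusted Wald p of 0.0076). With Ret present the loss of Sema3d went with -0.10 ± 0.11, and the product term, which tests whether both Sema3d differences are equal, was 0.66 with an adjusted p of 0.0265 in the authors' deposited table. There, 34 members had a product term with adjusted p below 0.05 (0.274% of the members), and Plxna4 was the only one among them that was also called between double null and Ret null guts.

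Thbd encodes thrombomodulin, the thrombin receptor on the surface of endothelial cells. Its level was 365 in wildtype, 237 in Ret null, 337 in Sema3d null and 373 in double null guts. Ret null guts were the low group, and the other three genotypes lay close together. The difference was 0.66 ± 0.15 (adjusted Wald p of 0.0206). Its product term was 0.77, with an adjusted p of 0.0776 in the authors' deposited table. From the authors' tables of double null and Ret null against wildtype the Thbd difference was again 0.66, and it was not called (adjusted Wald p of 0.0883).

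**Figure D1:**
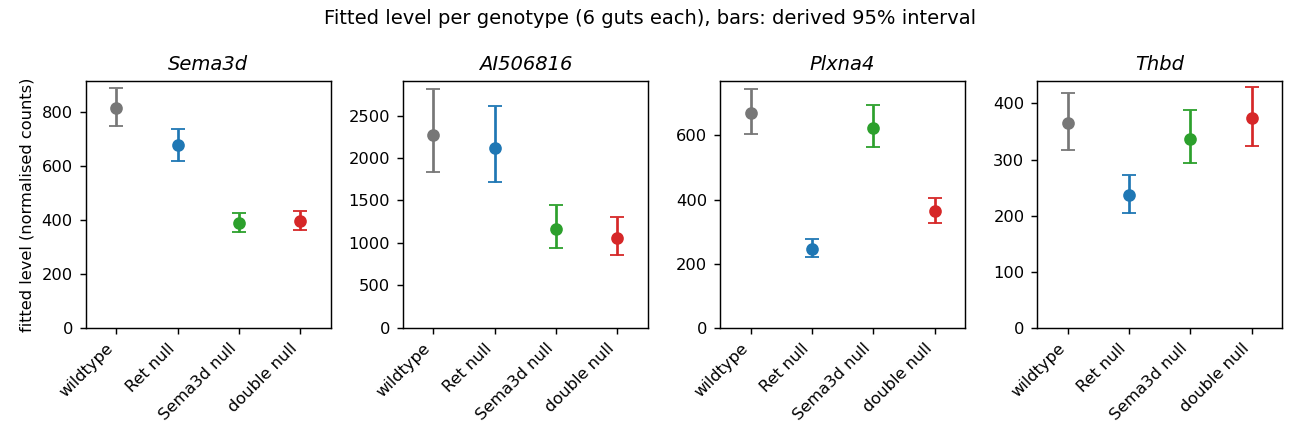
Fitted level (normalised counts, linear axes from 0) of the 4 called members in each genotype, 6 guts each; bars are 95% intervals from the derived dispersion. Sema3d and AI506816 are low in both genotypes with the Sema3d null allele, Plxna4 is low in both genotypes without Ret, and Thbd is lowest in Ret null guts at 237.

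The other 4 called genes did not reach the level of 50 in any genotype and are named here after their values were seen. Cfap69, on chromosome 5 with its start at 5.58 Mb and thus near Sema3d, was at 47.7 in Ret null guts and 24.5 in double null guts, and at 41.9 and 23.2 in wildtype and Sema3d null guts, a difference of -0.96 ± 0.21 (adjusted Wald p of 0.0194). Apoc2, Ahsg and Gys2 are genes of hepatocytes, encoding an apolipoprotein, fetuin A and the liver glycogen synthase. Their levels were 0.435, 0.815 and 0.406 in Ret null guts and 38.5, 26.6 and 15.4 in double null guts. They stood at 7.58, 10.9 and 6.45 in wildtype guts, so the Ret null group was the low one. Their differences rest on Ret null levels near 0. From the authors' tables against wildtype, Apoc2, Ahsg and Gys2 were not among the called genes. The labels do not record how much adjoining liver each dissected gut carried, and the adjusted Wald p-values were 0.00112, 0.0194 and 0.0200.

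**Figure D2:**
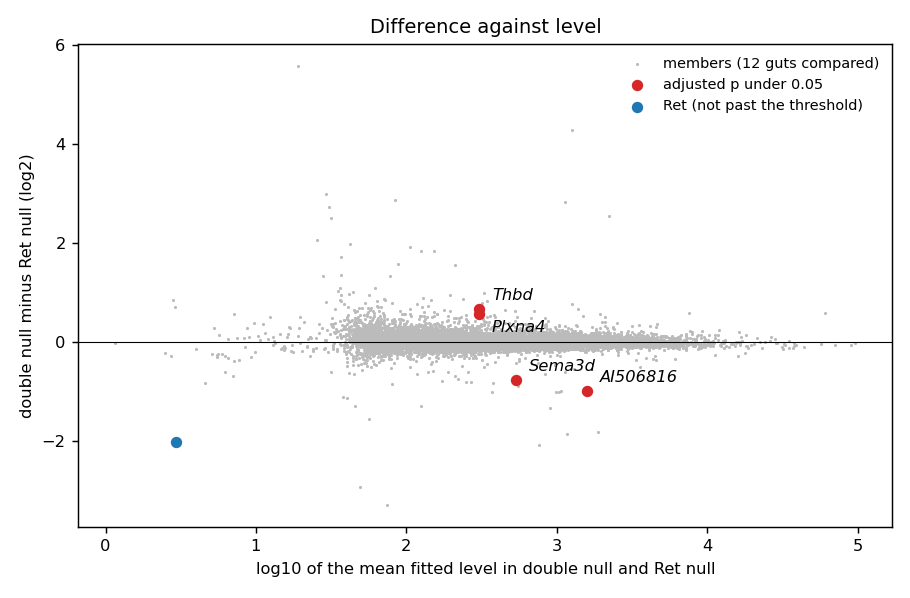
Each point is 1 of the 12416 members: the horizontal axis is the log10 of its mean fitted level in both genotypes, the vertical axis the log2 difference, double null minus Ret null. The 4 called members are red and labelled; Ret, which was not called, is blue; wide scatter below a level of about 100 goes with the larger errors there.

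Genes that came next in order of the Wald ratio were not called, and their values are given without a verdict. Above 0 these included Col6a6, a collagen VI chain, at 20.9 in Ret null guts and 53.0 in double null guts (1.34 ± 0.32, adjusted Wald p of 0.0579). Thsd7a, an endothelial protein with thrombospondin repeats, had 103 and 147 (0.51 ± 0.12, adjusted Wald p of 0.0757). The VEGF receptor gene Kdr had 1213 and 1503 (0.31 ± 0.077, adjusted Wald p of 0.106). The sphingosine-1-phosphate receptor gene S1pr1 had 160 and 213, and the caveolar coat gene Cav1 751 and 1011. Adgrl4, Prrt2, Ldlrad4 and Zbtb4 completed this group, with differences of 0.51, 0.73, 0.58 and 0.40. From the authors' tables against wildtype, Kdr, Thsd7a (adjusted Wald p of 0.0202) and Cav1 (0.0188) were called. Of these genes, Kdr, Adgrl4, S1pr1 and Cav1 are ones for which endothelial expression is well known.

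Below 0 the next genes included Cdca3, a cell cycle gene (997 in Ret null guts and 816 in double null guts, -0.29 ± 0.080, adjusted Wald p of 0.263). From the authors' tables against wildtype Cdca3 was called (adjusted Wald p of 0.0202), as was Gm12666 (0.0477). Aldh1a2, which encodes the enzyme that makes retinoic acid in embryonic mesoderm and mesothelium, had 3198 and 2745 (-0.22 ± 0.075). Its wildtype level was 2628, so Ret null guts were the high group. The condensin gene Ncapd2, Katnal2 and Wdr86 had -0.29, -0.65 and -0.33. Gm12666 had -2.94 ± 0.83, an error large beside the median. Gapdh, the glycolytic enzyme gene, had -0.29 ± 0.099. Rpl27-ps3 carries a pseudogene symbol, and its reads could be shared with the parent gene.

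Defining markers of enteric neurons and crest cells stood at similar low levels in both genotypes. In the enteric neuron list, Tubb3, a neuronal tubulin, was at 645 in wildtype, 15.7 in Ret null guts and 14.8 in double null guts. The RNA-binding protein gene Elavl4 was at 402, 43.7 and 45.4. The crest and glial transcription factor gene Sox10 was at 450, 40.1 and 36.8, and Foxd3 at 140, 10.5 and 10.8. The differences between the genotypes without Ret ran from -0.12 ± 0.24 (Sox10) to 0.056 ± 0.18 (Elavl4), so in these genes none was larger than its error.

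Over the 62 different members of the neural crest, neuron and glia lists, 0 were called by the Wald test, and 31 lay above 0 and 31 below. At an unadjusted p below 0.05, 5 were higher and 4 lower, shares above the 2.91% and 1.18% of all members. Their median difference was -0.0053, with a median error of 0.202, larger than that of all members because their levels were low. The 95% interval of the difference lay within -1 to 1 for 49 of the 62 and within -0.5 to 0.5 for 24, so at this precision small differences were not detectable in most of these genes.

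The neural lists differed in sign. In the enteric neuron list 12 of 37 described members lay above 0 and 25 below, with a median of -0.08, where 49.4% of all members lay above 0. The synaptic vesicle calcium sensor Syt1 was at 239 in wildtype, 37.1 in Ret null guts and 56.8 in double null guts (0.62 ± 0.21). Stmn2, a microtubule regulator of growing axons, was at 385, 78.3 and 116 (0.57 ± 0.21). The growth cone gene Gap43 was at 546, 197 and 161 (-0.30 ± 0.10), and the adhesion gene Cntn1 at 49.1, 47.1 and 33.4 (-0.50 ± 0.20). None of these 4 was called, with adjusted Wald p-values from 0.723 to 1.000, but Syt1 was called from the authors' tables of double null and Ret null against wildtype (0.64, adjusted Wald p of 0.0228). Dlg2, a synaptic scaffold gene named after its value was seen, was called higher there too (28.6 and 48.5 in Ret null and double null guts, 0.77, adjusted Wald p of 0.0188). The tubulin gene Tubb2b, also named after its value was seen, was called lower there (2757 and 2372, -0.22, adjusted Wald p of 0.0133). In the neural crest list 12 of 18 lay above 0 (median 0.06), led by Zeb2, a transcription factor gene of crest development, at 1692, 1192 and 1506 in wildtype, Ret null and double null guts (0.34 ± 0.092, adjusted Wald p of 0.221). From the authors' tables against wildtype Zeb2 was called (adjusted Wald p of 0.0130). The nerve growth factor receptor gene Ngfr was at 444, 189 and 224. In the glia list 9 of 12 lay above 0 (median 0.05), with Ptprz1, a receptor phosphatase gene, at 122, 30.98 and 41.5.

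**Figure D3:**
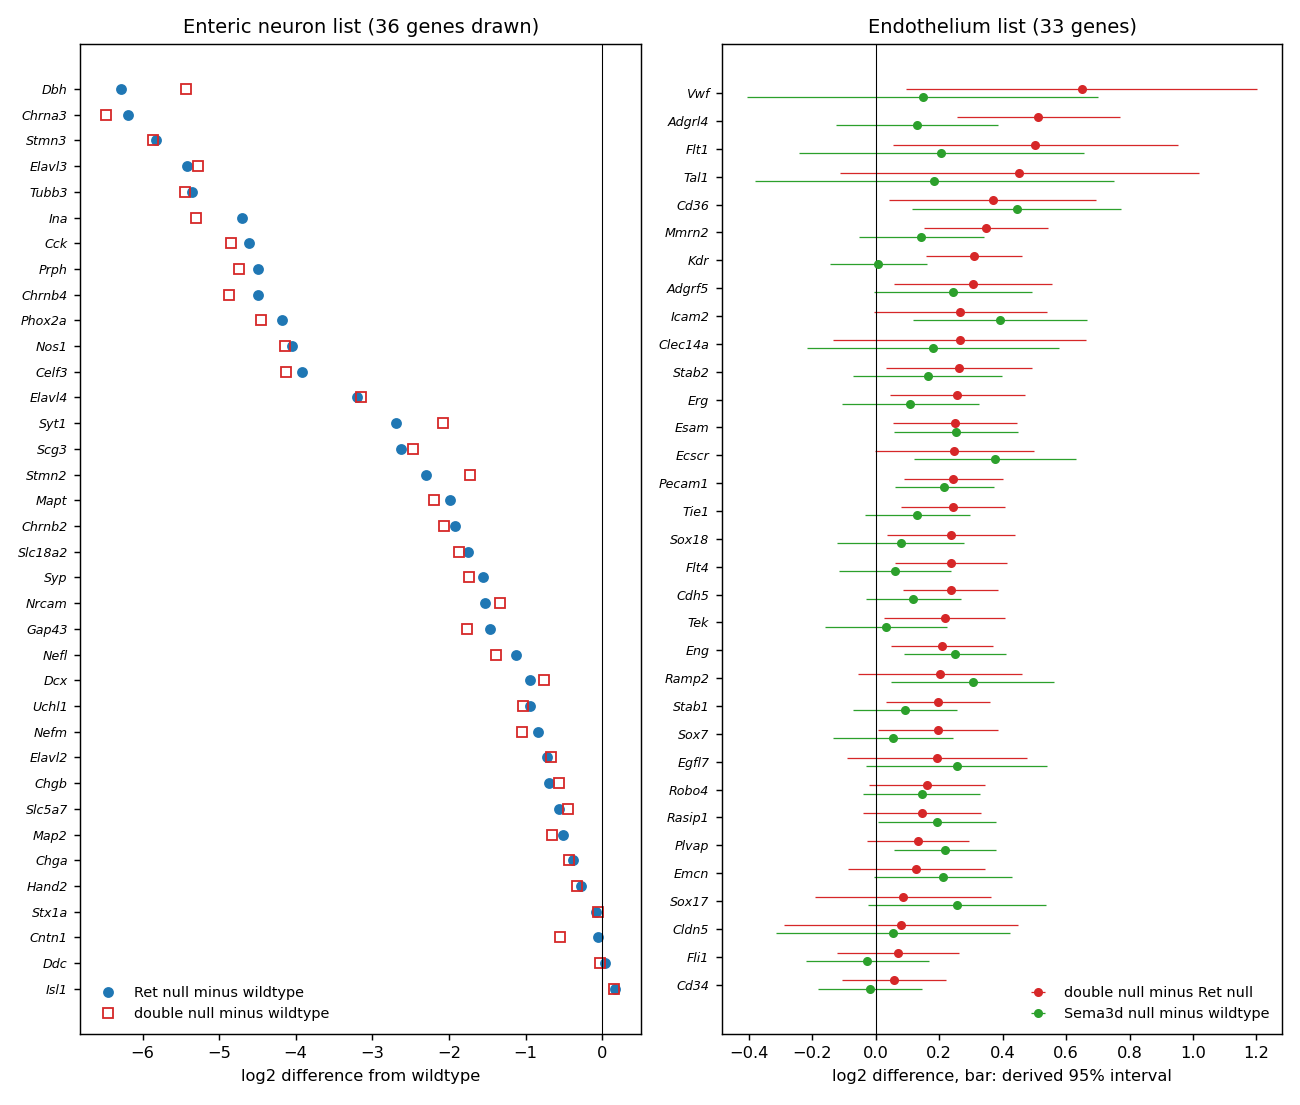
Left, log2 difference from wildtype of 36 enteric neuron genes in Ret null (filled circles) and double null guts (open squares); most pairs lie near each other, as for Tubb3 and Elavl4. Right, the 33 endothelial genes with double null minus Ret null (red) and Sema3d null minus wildtype (green) on the log2 scale, bars being derived 95% intervals; all 33 red points lie above 0.

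Among 30 described semaphorins, plexins and neuropilins, Sema3d fell and Plxna4 rose, and 0 others were called by the Wald test, 5 of them higher at an unadjusted p below 0.05. Of all members, 2.91% were higher and 1.18% lower at that p. The median difference in this list was 0.040, with 19 above 0 and 11 below, where 49.4% of all members lay above 0. Other class 3 ligands had small differences: Sema3a was at 907 in Ret null guts and 875 in double null guts, Sema3c at 866 and 899, Sema3e at 104 and 101, and Sema3f at 1102 and 1113. Sema3g, a ligand known from arterial endothelium, was at 106 and 137 (0.36 ± 0.13, unadjusted p of 0.0041). Of the receptors, the neuropilin gene Nrp1 was at 1815 and 2016 (0.15 ± 0.076) and Nrp2 at 5970 and 5680 (-0.072 ± 0.073). The endothelial plexin gene Plxnd1 was at 3540 and 3879 (0.13 ± 0.073), and Plxna1, Plxna2 and Plxna3 had differences of 0.014, 0.038 and 0.079. Plxna4 was thus the plexin A gene that was called. The transmembrane ligand gene Sema6d, at 1039 and 1179, had 0.18 ± 0.088. Most of these genes were named for their roles and not by size.

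In the Ret and endothelin pathway 0 of 18 described genes were called by the Wald test, Ret among them. At an unadjusted p below 0.05, 2 were higher and 1 lower, beside 2.91% and 1.18% of all members. The median difference of the 18 was 0.035. Of the ligands, Gdnf was at 784 in Ret null guts and 716 in double null guts (-0.13 ± 0.083), and Edn3 at 628 and 624. Of the receptors, the co-receptor gene Gfra1 was at 1713 and 1621, the endothelin receptor gene Ednrb at 786 and 823, and the neurturin co-receptor gene Gfra2 at 43.9 and 65.2 (0.57 ± 0.18, adjusted Wald p of 0.476). Target genes of receptor tyrosine kinase signalling had differences within about their error, with Etv4 at -0.13 ± 0.10, Etv5 at -0.063 ± 0.090, Spry2 at 0.12 ± 0.099 and Dusp6 at 0.085 ± 0.086.

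Endothelial genes lay higher in double null guts. All 33 described genes of the endothelium list had a difference above 0, where 49.4% of all members did, and the median was 0.24. At an unadjusted p below 0.05, 19 of the 33 were higher and 0 lower, against 2.91% and 1.18% of all members, but 0 were called by the adjusted Wald p. Cdh5, the endothelial cadherin, was at 1624 in wildtype, 1675 in Ret null, 1763 in Sema3d null and 1973 in double null guts (0.24 ± 0.076). Pecam1, the endothelial junction protein CD31, was at 916, 943, 1064 and 1117 in the same order (0.25 ± 0.079). Kdr was at 1317, 1213, 1325 and 1503, and Tie1, a vascular receptor kinase, at 576, 597, 631 and 707. For all 4 the double null guts were the highest genotype. Mmrn2, an extracellular endothelial protein, had 0.35 ± 0.099 and Adgrl4 0.51 ± 0.13.

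With Ret present, the same 33 genes had a median Sema3d null minus wildtype of 0.16, with 31 above 0, and 0 had a product term below the threshold in the authors' deposited table, where Kdr had an adjusted p of 0.405. The summed level of the list was 13699 in Ret null guts and 16253 in double null guts, a ratio of 1.19. When the difference was instead taken between the authors' tables of double null and Ret null against wildtype, which have smaller errors, the median was again 0.24 and 4 of the 33 were called, Kdr (adjusted Wald p of 7.41e-04), Flt1 (0.0130), Adgrf5 (0.0188) and Pecam1 (0.0211). By that reading 24 genes in all were called, 17 higher and 7 lower, and they shared Sema3d, AI506816, Cfap69 and Plxna4 with the 8 above.

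Genes of vessel growth and of the extracellular matrix lay higher too. In the list of VEGF, angiopoietin and delta-notch genes 20 of 22 lay above 0 (median 0.14) and 6 were higher at an unadjusted p below 0.05, with Hey2 at 102 in Ret null guts and 146 in double null guts, the arterial notch ligand gene Dll4 at 134 and 172, and Hey1 at 178 and 212. In the extracellular matrix list 33 of 35 lay above 0 (median 0.15), and 11 were higher at an unadjusted p below 0.05 with 0 lower. Of all members 49.4% lay above 0, and at that p 2.91% were higher and 1.18% lower. The laminin chain gene Lama4, of vascular basement membranes, was at 826 and 982 (0.25 ± 0.081), Col4a5 at 762 and 946 (0.31 ± 0.10), and Col1a2, a fibrillar collagen chain, at 10982 and 12925 (0.23 ± 0.082). Here 0 genes of either list were called by the adjusted Wald p. With Ret present the matrix list had a median of -0.03.

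Markers of other cell types lay higher beside these genes. Of the hepatocyte and pancreas list 16 of 19 described members lay above 0 in double null minus Ret null (median 0.26), with a summed level of 10759 in Ret null guts and 13895 in double null guts. The hepatocyte product Afp was at 929 in wildtype, 281 in Ret null, 1719 in Sema3d null and 2003 in double null guts (2.83 ± 0.86, adjusted Wald p of 0.451). The Afp error was large beside the median of 0.0961 over members, and it rests on a dispersion shared by all genotypes. Apoa2 had 6.50 and 51.7 in Ret null and double null guts. Ttr was at 157 and 188, while the pancreatic gene Pdx1 was at 137 and 112. The part of liver tissue in the endothelial and matrix differences was not tested. Of the macrophage list 14 of 15 lay above 0 (median 0.15, summed level 3072 and 3309), with Cx3cr1 at 171 and 204, and 0 were called by the Wald test, 3 being higher at an unadjusted p below 0.05. Of all members 49.4% lay above 0, and 2.91% were higher at that p. The fit of the hepatocyte gene Alb did not converge, and its value is not used.

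Epithelial, mesothelial and smooth muscle genes had medians close to 0. The median was 0.012 for 27 epithelial genes, of which 0 reached even an unadjusted p of 0.05, 0.00048 for 13 mesothelial genes and 0.027 for 26 genes of smooth muscle and interstitial cells. Barx1, a homeobox gene of stomach mesenchyme, had the largest Wald ratio in the smooth muscle list (2172 and 1817 in Ret null and double null guts, -0.26 ± 0.10). Among 43 genes of hedgehog, BMP, Notch, Wnt and retinoic acid signalling the median was -0.0017. The 30 Hox genes had a median of -0.075, with 14 above 0 and 16 below. At an unadjusted p below 0.05, 3 of them were lower and 0 higher, where 1.18% of all members were lower: Hoxa5, Hoxa4 and Hoxb2, with differences of -0.20, -0.21 and -0.20. The erythroid list had a median of 0.041; in it the embryonic globin gene Hbb-y had 14575 and 14115, and the adult-type alpha-globin gene Hba-a2, 1 of 2 near-identical copies and therefore uncertain, 650 and 3780. Across these lists 0 genes were called by the adjusted Wald p. Beside the Hox genes, at an unadjusted p below 0.05, 1 gene was higher and 1 lower in each of the smooth muscle, mesothelium and erythroid lists, and 2 and 2 in the signalling list. Of all members 2.91% were higher and 1.18% lower at that p.

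**Figure D4:**
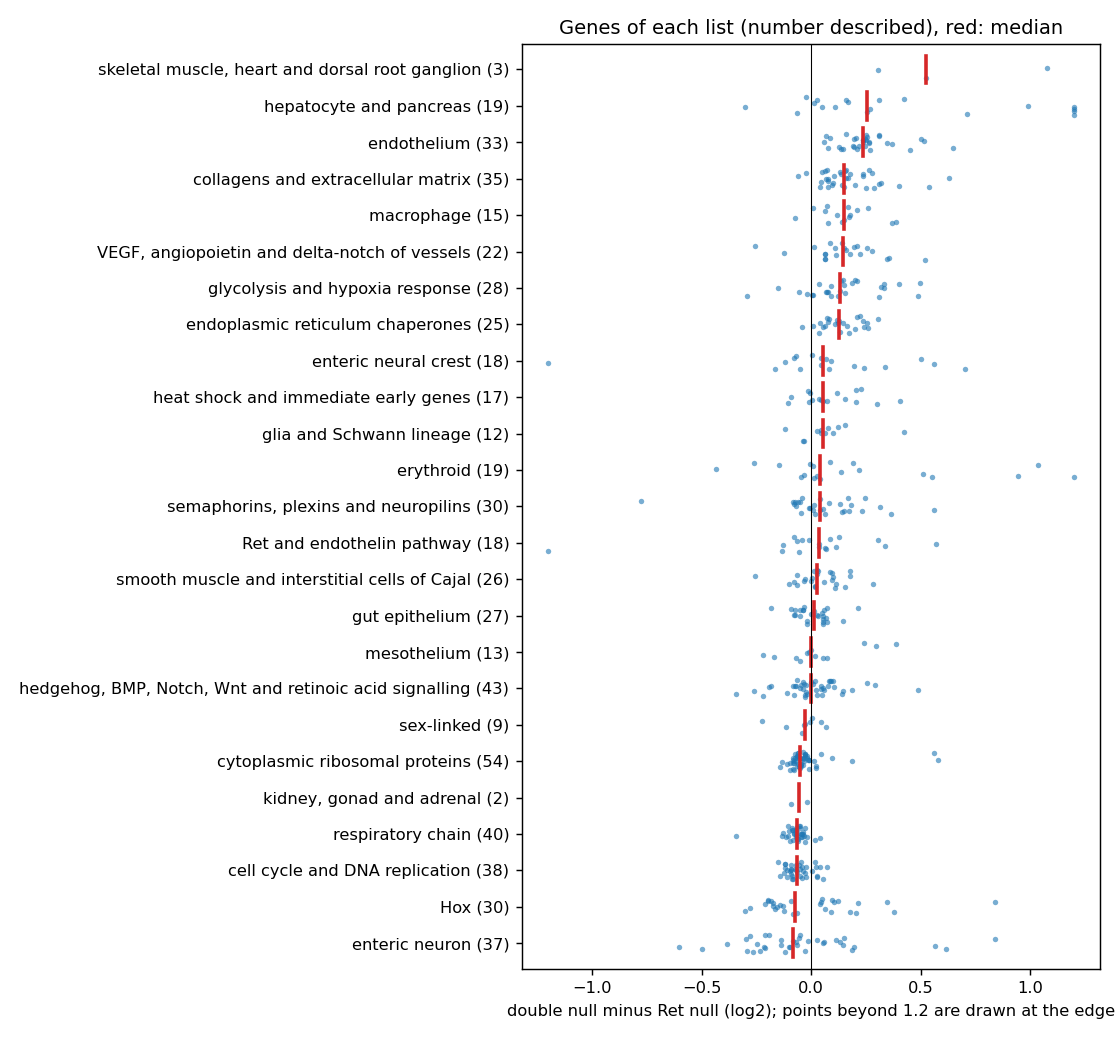
Difference, double null minus Ret null (log2), of each described gene (blue) in the 25 lists, with the list median in red and the number of genes in brackets; points beyond 1.2 sit at the edge. The endothelium list lies wholly above 0, and the respiratory chain list almost wholly below it.

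Housekeeping lists had small median differences, with most genes of a list on one side of 0. Of 25 genes for chaperones of the endoplasmic reticulum 24 lay above 0 (median 0.13), where 49.4% of all members did. At an unadjusted p below 0.05, 6 were higher and 0 lower, beside 2.91% and 1.18% of all members. Among these chaperone genes Pdia4, a disulfide isomerase, was at 2367 in wildtype, 2119 in Ret null, 2066 in Sema3d null and 2619 in double null guts. Each single null was below wildtype and the double null above it. The Pdia4 difference was 0.31 ± 0.076 (adjusted Wald p of 0.0939), and its product term was 0.50 with an adjusted p of 0.0054 in the authors' deposited table. Hsp90b1 was at 8545 and 9877 in Ret null and double null guts, Calr at 7386 and 8482, and Hyou1 at 2115 and 2381. With Ret present the list had a median of -0.07, of the other sign.

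In the respiratory chain list 2 of 40 genes lay above 0 (median -0.065), and in the ribosomal protein list 8 of 54 (median -0.050), where 49.4% of all members did. With Ret present these lists had medians of 0.098 and 0.15, again of the other sign. The cell cycle list had 8 of 38 above 0 (median -0.065), with Aurkb at 982 and 885 and Mcm7 at 2824 and 2556. At an unadjusted p below 0.05 the respiratory chain and cell cycle lists held 0 genes and the ribosomal protein list 1, Rps3a1 (6116 and 9144), beside 4.09% of all members. The processed pseudogenes of Rps3a1, Rps3a2 and Rps3a3, differed the other way (-1.83 ± 1.00 and -1.86 ± 1.05). Glycolysis and hypoxia genes had a median of 0.13, with 24 of 28 above 0, and 0.30 with Ret present.

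The differences varied with transcript length. Over 20 equal groups of members by exon length, the median difference ran from -0.053 in the shortest (median 1017 bp) to 0.064 in the longest (15801 bp). Across 12393 members with a length, Spearman's rho between difference and length was 0.271, and for Sema3d null minus wildtype it was -0.426. These are descriptions over genes that share libraries. When a smooth length trend was subtracted, the respiratory chain median became -0.025 and the ribosomal protein median -0.0099, with 12 of 40 and 19 of 54 above 0. The endothelium median stayed at 0.24 with all 33 above 0, the chaperone median was 0.14, and the matrix median 0.11. Sema3d null minus wildtype, which shares no gut with double null minus Ret null, was related to it across 12416 members with Pearson's r of -0.222 and Spearman's rho of -0.216.

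Genes near Sema3d were described separately, because DNA linked to a targeted allele can travel with it and cannot be told apart from the loss of Sema3d here. Within 20 Mb of Sema3d 134 members were measured. Of these 1 was called, AI506816, and 16 (11.9%) had an unadjusted p below 0.05, against 4.09% of all members. They were 8 higher and 8 lower, and 14 of the 16 had the same sign in Sema3d null minus wildtype. Beside AI506816, the lower ones included Rint1, 2700038G22Rik, Wdr86 and Prkag2, which all start between 11.4 and 12.5 Mb from Sema3d, with -0.22, -0.44, -0.33 and -0.21. Cyp51, Cdk14 and Dbf4, on the other side, had -0.20, -0.19 and -0.21. The higher ones included Reln, 6030443J06Rik and Adam22 with 0.94, 0.70 and 0.51, the pseudogene Gm15459 with 4.29 ± 1.72, and Cd36, Fzd1, Ptpn12 and Fosl2 with 0.37, 0.17, 0.16 and 0.16. Around Ret, where both genotypes carry the null allele, 186 members were measured, with 0 called by the Wald test and 13 (6.99%) at an unadjusted p below 0.05, 9 higher and 4 lower. Cdca3, Gapdh and Ncapd2, all lower, start within 6.68 to 7.02 Mb of Ret, and Pianp, between them at 6.84 Mb, had 2.87 ± 0.91. By chromosome, this share was highest on chromosome 6 at 7.11% and lowest on chromosome 12 at 2.08%. Chromosomes 3 and 18, which hold neither targeted gene, had 7.05% and 6.04%, and chromosome 5 had 5.93%. The genes named in this stretch were picked after their values were seen, and the part of linked strain differences was not tested.

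**Figure D5:**
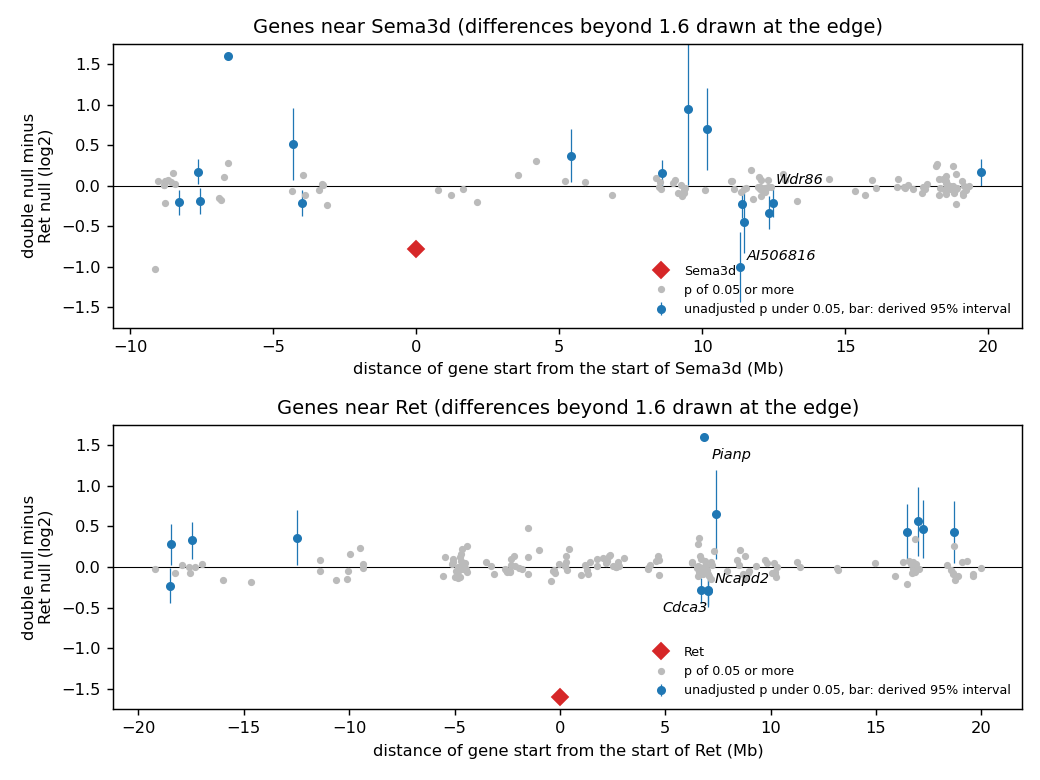
Difference, double null minus Ret null (log2), of members within 20 Mb of Sema3d (top) and Ret (bottom) against the distance of their starts; blue points have an unadjusted p below 0.05 and bars are derived 95% intervals. AI506816, at -1.01, lies lowest of the genes near Sema3d with an unadjusted p below 0.05, and higher and lower blue points occur on both sides of Sema3d.

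For 34 members the Sema3d difference itself depended on Ret, by the product term of the authors' deposited table. All 34 had opposite signs in double null minus Ret null and in Sema3d null minus wildtype, which a large product term favours by its construction, and 26 of them lay above 0 with Ret missing. Col12a1, a collagen of fibril surfaces, was at 3672 in wildtype, 2817 in Ret null, 2732 in Sema3d null and 3510 in double null guts. The lysosomal trafficking gene Lyst was at 546, 289, 378 and 369, Klhl11 at 239, 217, 181 and 265, and Farp2, which encodes a guanine nucleotide exchange factor of semaphorin signalling, at 221, 186, 162 and 220. In Col12a1, Klhl11 and Farp2 each single null lay below wildtype and the double null near or above it. Between double null and Ret null guts these genes had differences of 0.32, 0.35, 0.29 and 0.24, none of them called. Both differences that make up the product term varied with exon length, in opposite directions (Spearman's rho of 0.271 and -0.426). Lyst and Col12a1, with terms above 0, had lengths of 17459 and 15228 bp, but Klhl11 had 2393 bp. Rps3a2 and Rpl27-ps3, with terms below 0, had 792 and 411 bp. The part of transcript length in these terms was not tested.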

How the data were processed

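Poly-A RNA of each gut was made into a stranded library and sequenced as read pairs, per the labels' protocols. The submitters' processing notes name the GRCm38 (mm10) build and, as tools, DESeq 1.24.0, RSEM 1.2.31, STAR (with no version stated), Trimmomatic 0.36 and FastQC 0.11.5. The authors deposited 4 tables of DESeq model fits. Coefficients are on the log2 scale: the headers name no base, and base 2 gave a summed wildtype level of 11.8, in units of 1e6, against 449.8 with base e. The deviances of the full and reduced models, deposited by the authors, served as a score of model fit. The p-values and adjusted p-values deposited by the authors test the product term in the table of all 24 guts. In the other tables they belong to the comparison of a genotype with wildtype.

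From these values the interaction error was taken as the size of the product coefficient over the square root of the deviance difference. With a negative binomial variance it gave a dispersion per gene, and that gave the error of the difference between 2 genotypes. The dispersion of 71.9% of members lay within 10% of 1 smooth curve of the level. A two-sided normal (Wald) p was adjusted by Benjamini-Hochberg over 22438 genes, and genes below 0.05 were called. This derived error was 1.24 and 1.22 times that of the authors' Ret null and double null tables, and 0.870 times that of their Sema3d null table. The arithmetic was tested on simulated data. No count test could be run, since these tables hold no counts, and depth per gut is unknown from them. Python 3.11.15, numpy 2.4.6, scipy 1.17.1 and pandas 2.3.3 were used. GENCODE M21 gave positions and lengths for 99.8% of members, and RefSeq gave the promoter stretches.

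The text names Ret and Sema3d, the 12 largest increases and decreases (filled up by Wald ratio where fewer were called), up to 4 genes per list by Wald ratio, and the 12 smallest product p-values, all at a level of at least 50; further genes were named for their role or after their values were seen. A few genes covered by this rule are not reported here. The members and lists were chosen with earlier results of these data known. Alternatives tried were other errors, level filters, thresholds, bounds, centring, gene types, a length trend and the log base.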

Additional observations from a re-analysis of the deposited data

Results flagged for a closer look

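The Sema3d difference differed between guts with and without Ret, by the product term of the authors' deposited table, for the named genes given here with that term on the log2 scale. It was above 0 for Col12a1 (0.74), Farp2 (0.69), Klhl11 (0.69), Lyst (0.88), Pdia4 (0.50), Plxna4 (0.66) and Samd5 (0.57), and for the less well annotated Gm38372 (1.12) and Gm9581 (1.28). It was below 0 for Gm17383 (-1.71), Rpl27-ps3 (-1.70), Rps3a2 (-7.44) and Rps3a3 (-10.5). These 4 are pseudogenes by symbol or annotation, whose reads can be shared with a parent gene, so their values are uncertain. The part of transcript length in all these product terms was not tested. Rps3a3 went from a level of 2.80 in wildtype to 1843 in Ret null guts and 507 in double null guts, and the parent Rps3a1 from 10532 to 6116 and 9144.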

How the results depend on the processing

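No paired analysis was possible because the deposited tables hold no value per gut, and for the same reason leaving out each replicate was not run. The count of 8 called genes (5 higher, 3 lower; 4 members) depended on the error used. With the interaction error over the square root of 2 it was 15 (11 higher, 7 members), and the Ret difference was then called at -2.03 (adjusted Wald p of 0.00638). With the whole interaction error, an upper bound, it was 1 (0 higher, 1 lower, 1 member), namely Sema3d, with 159 genes at an unadjusted p below 0.05. From the 2 tables against wildtype it was 24 (17 higher, 7 lower, 21 members); 4 genes were shared, and Thbd missed the threshold there (adjusted Wald p of 0.0883). Adjusting over levels of at least 50, or of at least 200, gave 4 (2 higher). These were the same 4 members, since the other called genes lay below those levels and were left out. A threshold of 0.01 gave 3 (2 higher, 1 lower, 2 members) and one of 0.10 gave 13 (10 higher, 7 members). A bound of 10, centring, protein-coding genes only, a level of at least 10, removal of the length trend and the natural log gave 8 or 9. Among genes that the naming rule covers, the difference of Osr1, a kidney and mesoderm gene at -0.021 ± 0.091, changed sign to 0.014 with the length trend removed, and the signalling list's median of -0.0017 became 0.020 there and 0.00025 from the 2 tables.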
